A study of Mus musculus with 6 samples.

Results

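The lysosomal genes described here encode hydrolases, lipid transfer proteins, membrane proteins, proton pump subunits and the regulators of their genes. They are 37 named members, chosen by name for what they encode, and a member was measured where a row of the array annotation named it and no other gene. That held for 36 of the 37, out of 30102 genes measured in all; Glb1, the lysosomal beta-galactosidase, had no row naming it alone. The measurements come from bone marrow-derived mast cells (BMMCs), cultures grown from femoral marrow of C57BL/6J mice with interleukin 3 and stem cell factor and matured for 6 weeks. The activated group had 3 arrays of cells given 1 µg/mL ionomycin, a calcium ionophore that triggers granule release, for 1 h in Tyrode's buffer. The naive group had 3 arrays of cells kept in the same buffer without ionomycin. After 3 washes both groups spent 3 h in growth medium, so RNA was taken 4 h after the start, a time meant to show changes later than granule release itself. Nothing in the labels says that replicates came from separate cultures or animals, so p-values measure no more than the spread between these arrays, and that spread may be technical.

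Lysosomes are acid organelles in which hydrolases break down glycans, lipids, proteins and nucleic acids. A proton pump, the V-ATPase, keeps them acid, and heavily glycosylated membrane proteins line them. The secretory granules of mast cells are related to lysosomes: they hold beta-hexosaminidase, whose release is the usual assay of degranulation, and CD63, which appears on the cell surface when granules fuse. Many lysosomal genes are controlled by TFEB and TFE3, factors that the calcium-dependent phosphatase calcineurin can send to the nucleus and that bind an E-box, the motif TCACGTG, near the start sites of their targets.

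The E-box was looked for in the RefSeq promoter windows of build GRCm38.p6, which run from 250 bases before to 50 bases after a start site. Of the 37 members, 32 matched an entry by symbol, with 36 windows. TCACGTG, read on both strands, lay in the windows of 10 of the 32 members (31.2%), against 4.29% of 27025 genes with a window. The 6-base core CACGTG, which lies inside it, was in the same 10 members and in 8.09% of all genes. Searches for other motifs, also on both strands, gave 6 members (18.8%) with CATGTG, the core of the M-box bound by MITF, against 15.9% of all genes. TGANTCA, a loose form of the AP-1 site that takes any middle base, was in 5 members (15.6%), against 8.97%. A match describes these letters only and says nothing of binding in these cells. The 10 stretches are shown because they hold the sites that later divide the members. Each is printed 5′ to 3′ on the gene's strand, with the sites in capitals and 15 bases on either side.
Sgsh, chr11:119355518-119355554, minus strand: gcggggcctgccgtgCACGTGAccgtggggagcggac
Naglu, chr11:101070005-101070041, plus strand: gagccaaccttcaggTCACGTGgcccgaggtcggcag
Gaa, chr11:119267807-119267843, plus strand: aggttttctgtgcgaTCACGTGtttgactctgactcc
Arsa, chr15:89477420-89477456, minus strand: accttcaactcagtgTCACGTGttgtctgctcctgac
Gla, chrX:134601178-134601248, minus strand: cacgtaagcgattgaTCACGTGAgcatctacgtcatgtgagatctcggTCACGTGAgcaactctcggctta
Glb1, chr9:114401014-114401050, plus strand: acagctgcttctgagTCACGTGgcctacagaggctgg
Mcoln1, chr8:3500432-3500495, plus strand: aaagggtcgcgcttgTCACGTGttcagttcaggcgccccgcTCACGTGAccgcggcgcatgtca
Lamp1, chr8:13159084-13159166, plus strand: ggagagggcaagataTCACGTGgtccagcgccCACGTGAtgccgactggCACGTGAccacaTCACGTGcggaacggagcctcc
Atp6v0d1, chr8:105566046-105566083, minus strand: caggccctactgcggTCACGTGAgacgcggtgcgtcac
Atp6v1a, chr16:44139369-44139406, minus strand: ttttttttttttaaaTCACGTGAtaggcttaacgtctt

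Lamp1 held 4 sites between 62 and 16 bases before its start site, Mcoln1 and Gla held 2 each, and the other 7 genes held 1. The site of Sgsh began 29 bases before its start site, and that of Atp6v0d1 began 4 bases before it. Where the capitals end in TCACGTGA, the motif reads on both strands at once and was counted as 1 site.

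Values are log2 signals as deposited, with a precision limited by the number of arrays. In both groups the replicate 1 array lay apart from the rest: the first principal component of all genes (52.6% of the variance) put them at -21.2 (ionomycin) and -48.0 (naive), and the other 4 arrays between 13.0 and 21.9. For named genes, the difference without both replicate 1 arrays is therefore also given where it moved by over 0.1 or where a call changed. The median difference of all genes, ionomycin minus naive, was 0.05 on the log2 scale. By limma with Benjamini-Hochberg adjustment over all genes and a threshold of 0.05, 87 genes (0.289%) rose and 18 (0.0598%) fell. With the replicate number as a block 119 (0.395%) rose and 33 (0.11%) fell.

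The mast cell label was checked against 12 measured mast cell markers, and all 12 lay above background, a log2 level of 5.99 set from chemosensory receptor genes. Their summed signal, taken back to the linear scale, was 85670 to 86960 in ionomycin arrays and 90380 to 92280 in naive arrays. Macrophage and dendritic cell markers, cells whose lysosomal genes are also strongly expressed, summed to 1732 to 2522 in ionomycin arrays and 1535 to 2045 in naive arrays. Replicate 3 had the lowest of these sums in both groups. Of 13 measured, 10 lay above background (Vsig4, Flt3 and Xcr1 did not) and 12 were higher with ionomycin. Basophil and eosinophil markers summed to 3552 in ionomycin replicate 1 and 2876 in naive replicate 1, and to between 1206 and 1355 on the other 4 arrays. Neutrophil markers summed to 873.9 to 896.1 in ionomycin arrays and 830.1 to 883.2 in naive arrays. Lymphocyte markers summed to 638.9 to 743.4 in ionomycin arrays and 513.6 to 543.5 in naive arrays, and erythroid and stromal markers to 3619 to 4710 in ionomycin arrays and 3021 to 3606 in naive arrays. Most of that last sum came from Pecam1, with log2 means of 11.693 (ionomycin) and 11.3 (naive). The next brightest of that list, Epor, had means of 8.428 and 8.065. Of the 55 markers 0 passed the threshold by limma without a block or with the replicate number as a block; at an unadjusted p under 0.05 without a block 10 were higher (18.2%) and 3 lower (5.45%), against 10.2% and 5.44% of all genes. With both replicate 1 arrays left out 4 passed as higher (Hdc, Siglecf, Ncr1 and Pecam1; 7.27%) and 2 as lower (the mast cell markers Ms4a2 and Tpsab1; 3.64%), against 1.41% and 1.43% of all genes. With a block that sets replicate 1 against replicates 2 and 3, Siglecf, Ncr1, Epor and Pecam1 passed as higher and Ms4a2 as lower, against 2.25% and 2.47% of all genes. The part of other cells in the results below was not tested. In such bulk RNA, fewer cells of a type and less RNA per cell cannot be told apart.

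None of the 36 lysosomal genes passed the limma threshold at 4 h, in the fit without a block or with the replicate number as a block. The smallest limma adjusted p was 0.0994, for Sgsh, and with the block it was 0.0914, for the same gene. Differences were small: they ran from -0.42 (Sgsh) to 0.40 (Scarb2), their median was -0.03, and 22 of the 36 lay within 0.1 of 0. The median of the 11160 genes whose mean was at or above that of the dimmest member was -0.02. Of the members, 15 were above 0 and 21 below, and with arrays centred on their median, which put the median of all genes at -0.01, 6 were above 0 and 30 below. After centring the members' median was -0.098. That of the 11160 genes at or above the dimmest member's mean was then close to it, at -0.089, with 7516 of them below 0.

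The precision of these differences was as follows. Moderated standard errors (SE) ran from 0.05 to 0.43 with a median of 0.09. For 28 of the 36 genes the 95% interval of the difference lay wholly inside -0.5 to 0.5, and for 30 it held 0. At an unadjusted p under 0.05, 3 were higher (Lamp2, Scarb2 and Tfeb) and 3 lower (Sgsh, Mcoln1 and Atp6v0d1), 8.33% in each direction, against 10.2% higher and 5.44% lower over all genes. With the replicate number as a block, 2 were higher (5.56%; Lamp2 and Tfeb) and 4 lower (11.1%; the same 3 and Naglu), against 16% and 9.41% over all genes. The groups' arrays did not overlap for 3 members that were higher (8.33%) and 5 that were lower (13.9%), against 18.9% and 7.31% of all genes. The 5 were Sgsh, Mcoln1, Atp6v0d1, Fuca1 and Neu1, and the 3 were Lamp2, Scarb2 and Tfeb. The shares of all genes include genes below background. Of genes above background with a promoter window, 12.8% of the 11306 without TCACGTG were lower without overlap, and 2433 were higher. Of the 723 with TCACGTG, 18.4% were lower without overlap and 118 were higher.

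**Figure D1:**
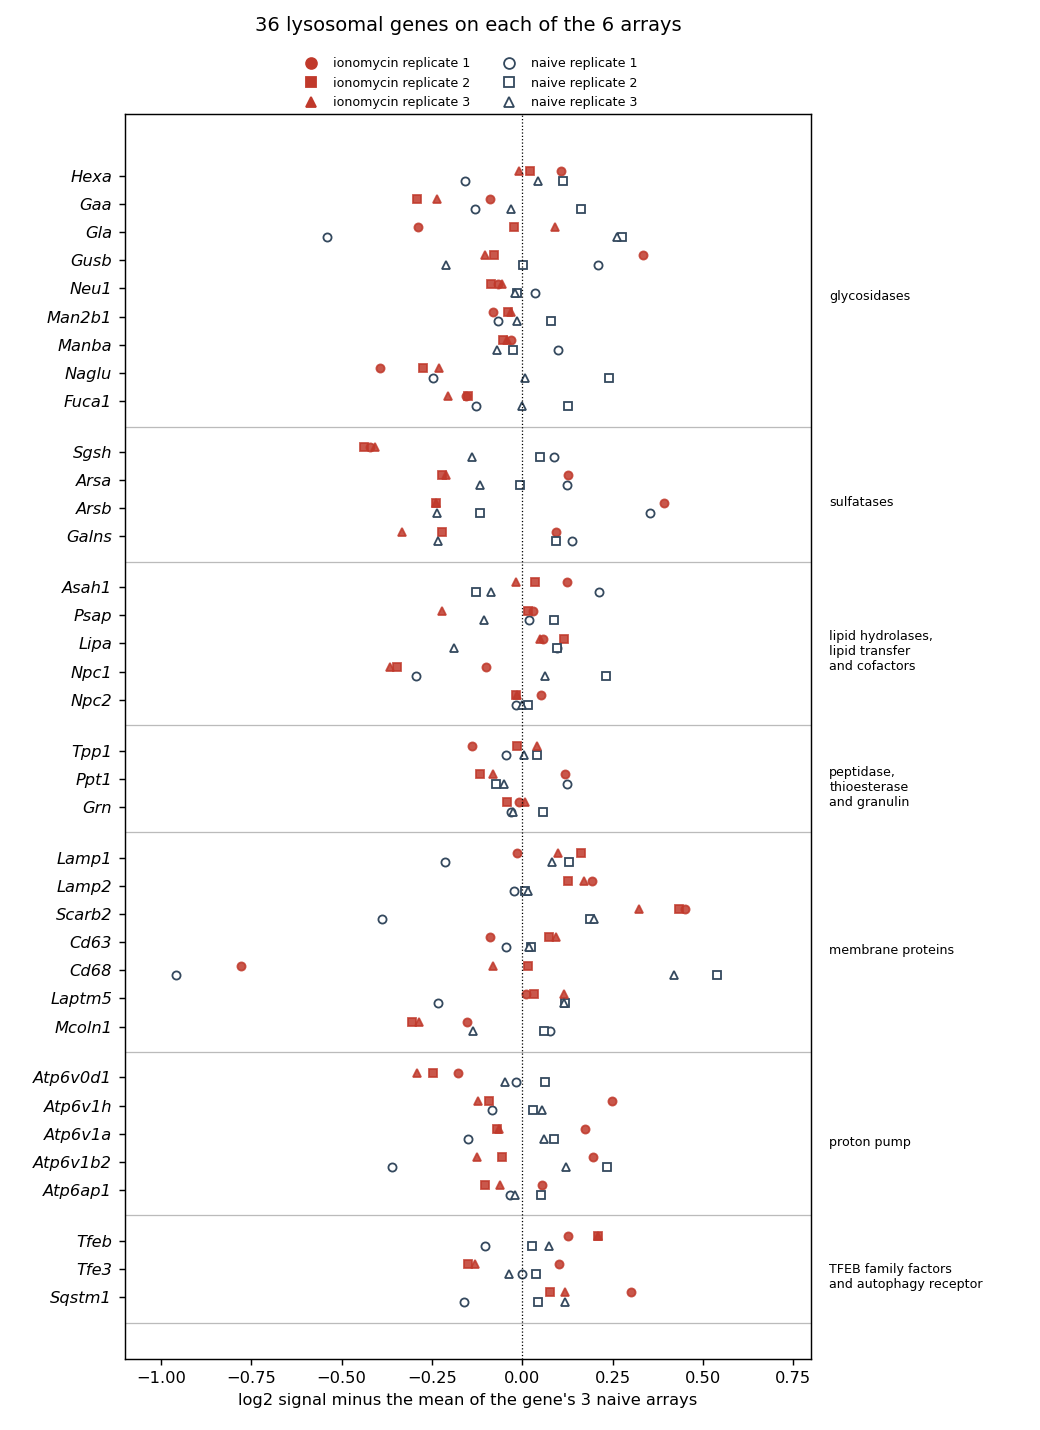
Log2 signal of each of the 36 measured lysosomal genes on each array, minus the mean of that gene's 3 naive arrays (horizontal axis), with genes grouped by role down the page. Filled red symbols are the 3 ionomycin arrays and open symbols the 3 naive arrays, and the symbol's shape gives the replicate number. Cd68 spreads the most, with both replicate 1 arrays far to the left, and for Sgsh the ionomycin arrays sit together, left of all 3 naive arrays.

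Among the 9 measured glycosidases, which cut sugar chains, 0 passed the threshold by limma, 7 differences were below 0 and the median was -0.07. Naglu, which removes N-acetylglucosamine from heparan sulfate, had the largest difference of them. It averaged 9.52 ± 0.08 in ionomycin arrays and 9.82 ± 0.24 in naive arrays (log2 signal, SD, n = 3 each), a difference of -0.30 ± 0.13 (SE). Its groups overlapped, with a limma adjusted p of 0.328, and 0.149 with the block. Gaa, the acid glucosidase that degrades glycogen, averaged 9.96 ± 0.10 in ionomycin arrays and 10.16 ± 0.15 in naive arrays, a difference of -0.20 (limma adjusted p = 0.348) and of -0.33 without both replicate 1 arrays (0.115). Fuca1, the lysosomal fucosidase, averaged 10.07 ± 0.03 in ionomycin arrays and 10.24 ± 0.13 in naive arrays, a difference of -0.17 (limma adjusted p = 0.340), with no overlap. These 3 were the glycosidases that differed by over 0.1 in either direction.

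The other 6 glycosidases stayed close to 0. Hexa, the alpha subunit of the beta-hexosaminidase measured in degranulation assays, averaged 11.55 ± 0.06 in ionomycin arrays and 11.51 ± 0.14 in naive arrays (difference 0.04, 95% interval -0.17 to 0.25; -0.07 without both replicate 1 arrays). Neu1, the lysosomal sialidase, had a small but even difference of -0.07 ± 0.05 (SE), averaging 8.45 ± 0.01 in ionomycin arrays and 8.52 ± 0.03 in naive arrays. Man2b1 and Manba, the alpha- and beta-mannosidases, differed by -0.05 and -0.04. Gusb, the beta-glucuronidase, differed by 0.05 with a wide interval of -0.33 to 0.43. Gla, alpha-galactosidase A, differed by -0.07, averaging 11.07 ± 0.19 in ionomycin arrays and 11.14 ± 0.47 in naive arrays, of which replicate 1 lay lowest, at 10.60. The Gla difference without both replicate 1 arrays was -0.24 (limma adjusted p = 0.140).

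Sgsh, one of the 4 sulfatases, had the largest negative difference of all 36 genes. It encodes the heparan N-sulfatase, which takes sulfate off the glucosamine of heparan sulfate. Sgsh signals were 8.76, 8.74 and 8.77 in ionomycin arrays, against 9.27, 9.23 and 9.04 in naive arrays. All 3 ionomycin arrays lay below the lowest naive array and close to each other. The difference was -0.42 ± 0.07 (SE; 95% interval -0.60 to -0.24), with a limma adjusted p of 0.0994. It passed the threshold with the block that sets replicate 1 against replicates 2 and 3 (limma adjusted p = 0.0346), where over all genes 2.25% rose and 2.47% fell. Without both replicate 1 arrays the difference was -0.38 (limma adjusted p = 0.0850).

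The other 3 sulfatases were also below 0, and their groups overlapped. Arsa, which acts on sulfatide, differed by -0.10 (8.14 ± 0.20 in ionomycin arrays, 8.24 ± 0.12 in naive arrays). Galns, which acts on keratan sulfate, differed by -0.15 (8.33 ± 0.22 in ionomycin arrays, 8.48 ± 0.20 in naive arrays). Arsb, which acts on dermatan sulfate, differed by -0.03 on the row used and by 0.21 on its second, dimmer row, and neither row passed. In these 3 genes replicate 1 was the highest array of both groups.

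Genes of lipid breakdown and transfer had a median difference of 0.01 (-0.06 with arrays centred on their median), and 0 of the 5 passed by limma. Npc1, the membrane protein that exports cholesterol from lysosomes, was lower at replicates 2 and 3 only. Npc1 signals were 10.54, 10.29 and 10.27 in ionomycin arrays, against 10.35, 10.87 and 10.70 in naive arrays. With all arrays its difference was -0.27 ± 0.15 (SE; limma adjusted p = 0.394). Without both replicate 1 arrays it was -0.50 and passed (limma adjusted p = 0.0399). Npc2, the soluble protein that hands cholesterol to Npc1, averaged 8.86 ± 0.04 in ionomycin arrays and 8.85 ± 0.02 in naive arrays, and its interval for the difference, -0.12 to 0.14, was among the narrowest. Lipa, the acid lipase, differed by 0.07, Asah1, the acid ceramidase, by 0.05, and Psap, the precursor of the saposins that help lipid hydrolases, by -0.06. Likewise near 0 were Tpp1, a tripeptidyl peptidase (-0.04), Ppt1, a thioesterase that removes palmitate from proteins (-0.03), and Grn, the precursor of the granulins (-0.01), all with overlapping groups.

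Of 7 membrane proteins, 0 passed by limma. Without overlap 2 were higher (28.6%) and 1 was lower (14.3%), against 18.9% and 7.31% of all genes. Lamp2, a main glycoprotein of the lysosomal membrane that also serves chaperone-mediated autophagy, had a small and even difference. Lamp2 signals were 12.26, 12.19 and 12.24 in ionomycin arrays, against 12.04, 12.07 and 12.08 in naive arrays. Each ionomycin array lay above each naive array, and the difference was 0.16 ± 0.05 (SE; limma adjusted p = 0.253). Lamp1, its close relative, had signals of 11.59, 11.77 and 11.71 in ionomycin arrays and 11.39, 11.74 and 11.69 in naive arrays. Those groups overlapped, and the difference of 0.08 (limma adjusted p = 0.702) was 0.03 without both replicate 1 arrays, with naive replicate 1 the lowest array.

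Scarb2 encodes LIMP-2, the membrane protein that carries glucocerebrosidase to lysosomes, and had the largest positive difference of the 36. Its signals were 9.97, 9.96 and 9.84 in ionomycin arrays, against 9.13, 9.71 and 9.72 in naive arrays. The groups did not overlap, but naive replicate 1 lay well below the other naive arrays. The difference was 0.40 ± 0.17 (SE; limma adjusted p = 0.318) with all arrays and 0.18 without both replicate 1 arrays (limma adjusted p = 0.195). By replicate number it was 0.84, 0.25 and 0.12. The Scarb2 promoter window held no TCACGTG. It is shown whole, as the counterpart of the E-box stretches above, on the minus strand at chr5:92505608-92505907, with CATGTG, here read on the opposite strand, in capitals.
Scarb2: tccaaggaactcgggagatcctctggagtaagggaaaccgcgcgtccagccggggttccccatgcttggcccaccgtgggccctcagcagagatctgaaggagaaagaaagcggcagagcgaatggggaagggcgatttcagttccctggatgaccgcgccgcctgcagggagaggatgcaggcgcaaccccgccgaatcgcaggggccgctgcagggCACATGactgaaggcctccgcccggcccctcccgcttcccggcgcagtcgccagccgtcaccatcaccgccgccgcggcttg

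Cd63, the granule tetraspanin, was level between the groups. Its signals were 13.12, 13.28 and 13.30 in ionomycin arrays, against 13.16, 13.23 and 13.23 in naive arrays. They interleaved, with a difference of 0.03 (95% interval -0.14 to 0.20; limma adjusted p = 0.854). Laptm5, a lysosomal membrane protein of blood cells, differed by 0.05, averaging 12.38 ± 0.06 in ionomycin arrays and 12.33 ± 0.20 in naive arrays.

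Mcoln1 encodes TRPML1, the channel that lets calcium out of lysosomes. Its signals were 8.57, 8.42 and 8.44 in ionomycin arrays, against 8.80, 8.79 and 8.59 in naive arrays. All ionomycin arrays were below all naive arrays, by the least at replicate 3. The difference was -0.25 ± 0.08 (SE), with a limma adjusted p of 0.269 without the block and 0.134 with it, and it was -0.26 without both replicate 1 arrays.

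Cd68 encodes macrosialin, a lysosomal glycoprotein used as a macrophage marker, and spread the most. Its signals were 10.67, 11.46 and 11.37 in ionomycin arrays, against 10.49, 11.99 and 11.87 in naive arrays. Replicate 1 was the lowest array of both groups, at -0.75 in the ionomycin group and -1.44 in the naive group relative to the mean of replicates 2 and 3. With all arrays the difference was -0.28 ± 0.43 (SE; limma adjusted p = 0.756). Without both replicate 1 arrays it was -0.51 and passed (limma adjusted p = 0.0343). Adgre1, the marker of macrophages that encodes F4/80, was the 1 of 13 macrophage and dendritic cell markers with a negative difference (-0.20), and the part of such cells in the Cd68 values was not tested.

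The proton pump is made of a membrane sector, which passes protons, and a soluble sector, which splits ATP. Of its 5 members 0 passed by limma and 1 (20%) was lower without overlap, against 7.31% of all genes. That was Atp6v0d1, which encodes a subunit joining the sectors. Its signals were 11.37, 11.30 and 11.26 in ionomycin arrays, against 11.54, 11.61 and 11.50 in naive arrays. The ionomycin arrays were lower at each replicate number, with a difference of -0.24 ± 0.06 (SE; limma adjusted p = 0.2003, 0.128 with the block) and -0.28 without both replicate 1 arrays.

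The other 4 pump genes had differences near 0 that were made of opposite parts. They were Atp6v1a and Atp6v1b2, which encode the subunits that bind ATP, Atp6v1h, a regulatory subunit, and Atp6ap1, an accessory protein. With all arrays they differed by 0.01, 0.00, 0.01 and -0.04, in that order, and after centring all 5 pump genes were below 0. At replicate 1 the ionomycin array was higher in all 4, by 0.32, 0.55, 0.33 and 0.09. At replicate 2 it was lower in all 4 (-0.16, -0.29, -0.12 and -0.16) and at replicate 3 likewise (-0.12, -0.25, -0.18 and -0.04). The median of the 5 pump genes was 0.32 at replicate 1, -0.16 at replicate 2 and -0.18 at replicate 3. The 4 differed, without both replicate 1 arrays, by -0.14 (Atp6v1a), -0.27 (Atp6v1b2), -0.15 (Atp6v1h) and -0.10 (Atp6ap1), and none passed (smallest limma adjusted p = 0.120, for Atp6v1b2).

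This turn was shared by other members. In all, 14 of the 36 genes (38.9%) were higher with ionomycin at replicate 1 and lower at replicates 2 and 3, against 8.73% of all genes and 10.6% of the genes at or above the dimmest member's mean. They were Hexa, Gaa, Gla, Arsa, Arsb, Psap, Npc1, Npc2, Cd68, Tfe3 and the 4 pump genes. Another 3 (Asah1, Lipa and Cd63) ran the opposite way. Some of the 14 were close to 0 at replicate 1: Arsa (0.003), Psap (0.011), Arsb (0.040) and Gaa (0.044). Arsb was at -0.002 at replicate 3. Signs of differences this small can move with the scaling of the arrays. The labels state no pairing, and numbers 2 and 3 correlated as well when crossed, so those matches are arbitrary. Crossed, Psap would leave the 14 (11.831 at ionomycin replicate 2, 11.708 at naive replicate 3), while Grn and Laptm5 would join. Galns, Lamp1 and Sqstm1 would likewise leave the lists for all 3 numbers given next. The median of the 36 was 0.04, -0.11 and -0.04 at replicates 1, 2 and 3, with 14, 28 and 23 genes below 0, while the median of all genes was 0.08, 0.05 and 0.03. At all 3 numbers 5 genes were higher (13.9%; Lamp1, Lamp2, Scarb2, Tfeb and, at 0.00 in replicate 3, Sqstm1) and 9 were lower (25%; Sgsh, Mcoln1, Atp6v0d1, Naglu, Fuca1, Galns, Man2b1, Neu1 and Ppt1). Over all genes the shares were 35.8% and 16.8%, and over genes at or above the dimmest member's mean 22.3% and 32.2%. Without both replicate 1 arrays the median was -0.07, with 26 of the 36 below 0 and 2 (Npc1 and Cd68) past the threshold as lower, where 1.41% of all genes rose and 1.43% fell. At an unadjusted p under 0.05, without those arrays, 2 members were higher (5.56%) and 11 lower (30.6%), against 12% and 10.2% of all genes. Those shares include dim genes. In that fit 11685 of all 30102 genes were below 0, and 6314 of the 11160 at or above the dimmest member's mean.

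**Figure D2:**
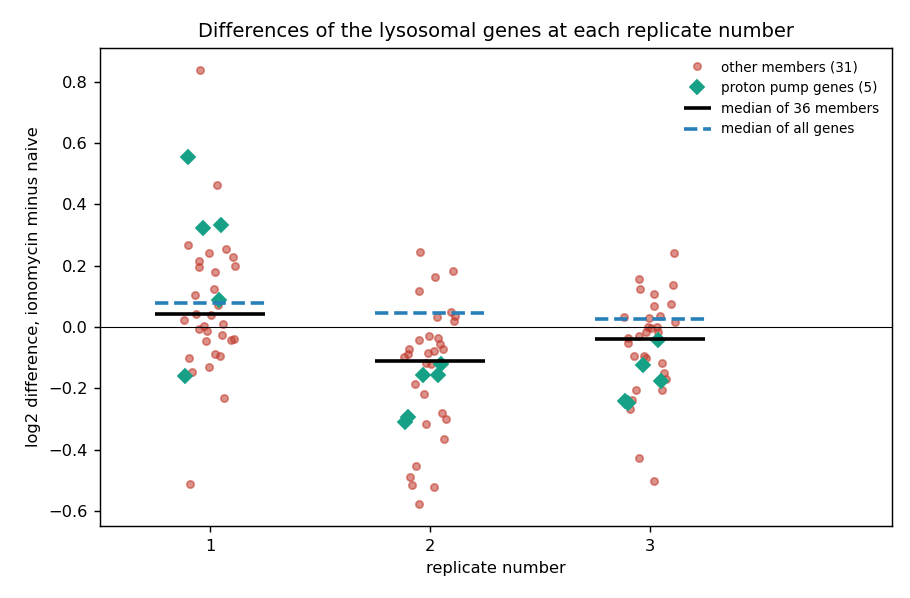
Log2 difference, ionomycin minus naive (vertical axis), of each of the 36 lysosomal genes between arrays of the same replicate number (horizontal axis). Green diamonds are the 5 proton pump genes and red points the other 31; the solid line is the median of the 36 and the dashed line that of all genes. Of the pump genes, 4 lie above 0 at replicate 1 and all 5 lie below 0 at replicates 2 and 3.

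The factors that control lysosomal genes differed little. Tfeb signals were 7.79, 7.87 and 7.87 in ionomycin arrays, against 7.56, 7.69 and 7.74 in naive arrays. Each ionomycin array was above each naive array, by a small margin, and the difference was 0.18 ± 0.07 (SE; limma adjusted p = 0.295, 0.147 with the block). Tfe3 had signals of 8.02, 7.77 and 7.79 in ionomycin arrays, against 7.92, 7.96 and 7.89 in naive arrays. Only ionomycin replicate 1 was above the naive arrays, and the difference was -0.06 (limma adjusted p = 0.727). Transcript levels say nothing of where these factors lie in the cell. Sqstm1 encodes p62, the receptor that brings ubiquitinated cargo to autophagosomes. Its signals were 12.60, 12.38 and 12.42 in ionomycin arrays, against 12.14, 12.35 and 12.42 in naive arrays. The difference of 0.17 (limma adjusted p = 0.426) came mostly from replicate 1, at 0.46, and was 0.02 without both replicate 1 arrays.

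**Figure D3:**
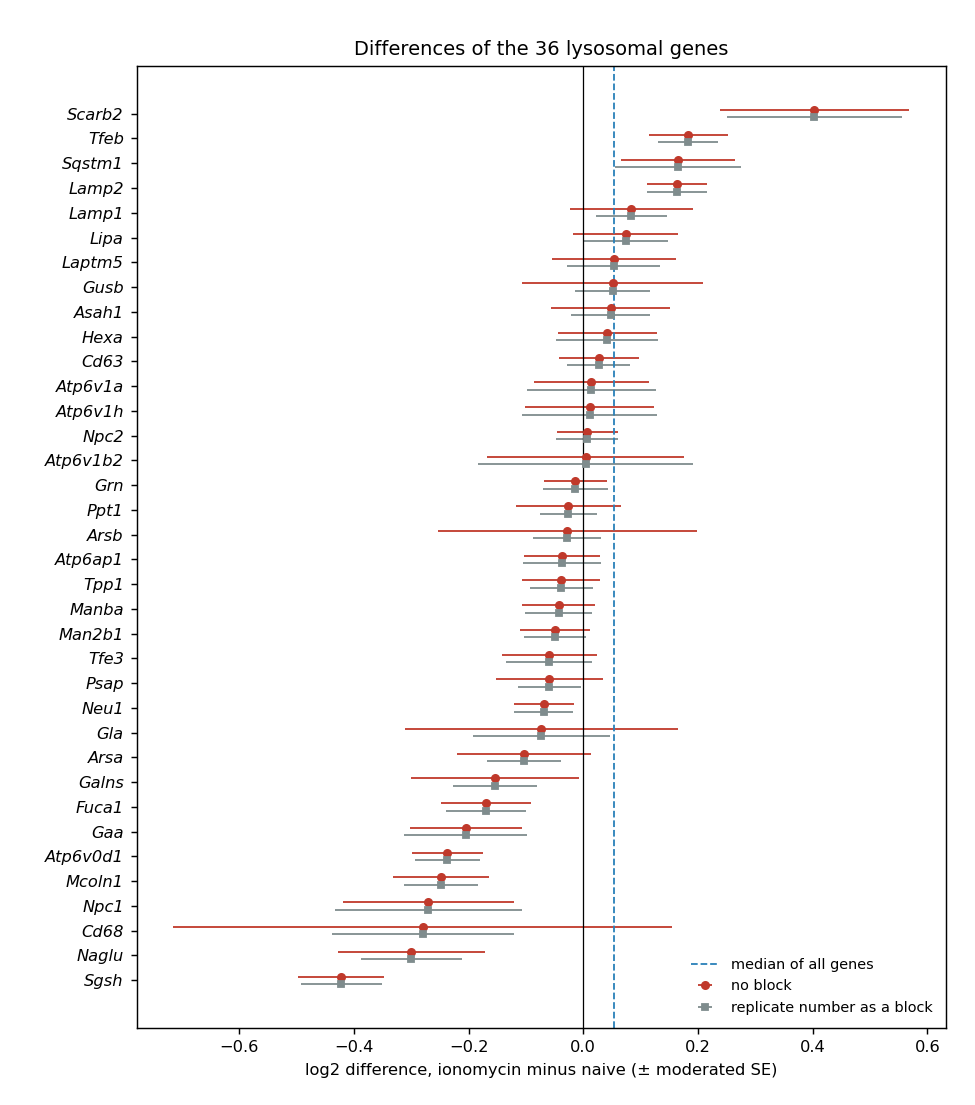
Log2 difference, ionomycin minus naive (horizontal axis), of the 36 lysosomal genes, sorted from the highest to the lowest. Circles are the fit without a block and squares the fit with the replicate number as a block, bars are ± 1 moderated SE, and the dashed line marks the median of all genes. Scarb2 is at the top with 0.40 and Sgsh at the bottom with -0.42, and the bar of Cd68 is the widest in the fit without a block.

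The members with a TCACGTG site were set beside those without one. The 9 measured members with a site had a median difference of -0.20, and 7 of the 9 were below 0. They were Sgsh (-0.42), Naglu (-0.30), Mcoln1 (-0.25), Atp6v0d1 (-0.24), Gaa (-0.20), Arsa (-0.10), Gla (-0.07), Atp6v1a (0.01) and Lamp1 (0.08). The 22 with a promoter window and no site had a median of -0.02, and 12 of them were below 0. Of the members whose groups did not overlap, 3 of the 5 lower ones had the site (Sgsh, Mcoln1 and Atp6v0d1), as did 0 of the 3 higher ones. Thus 33.3% of the 9 and 9.09% of the 22 were lower without overlap. Over all genes the shares were 15.2% with a site and 8.95% without, and above background 18.4% and 12.8%. Above background, 118 of 723 genes with a site and 2433 of 11306 without one were higher without overlap. By replicate number the median of the 9 was 0.00, -0.31 and -0.17 and that of the 22 was 0.06, -0.07 and -0.001. With both replicate 1 arrays left out the 9 were at -0.26, with 8 below 0, and the 22 at -0.03, with 14 below 0. With arrays centred on their median the 9 were at -0.27 and the 22 at -0.09. Among other genes of the pathway, the 27 with a site had a median of -0.12 and the 84 without one -0.07. Over genes above background the median was -0.05 for 723 genes with a site, 58.1% of them below 0, and 0.03 for 11306 without one, 44.5% below 0; after centring the medians were -0.12 and -0.03. These are descriptions of sets that share the same 6 arrays, and no test was made between them.

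**Figure D4:**
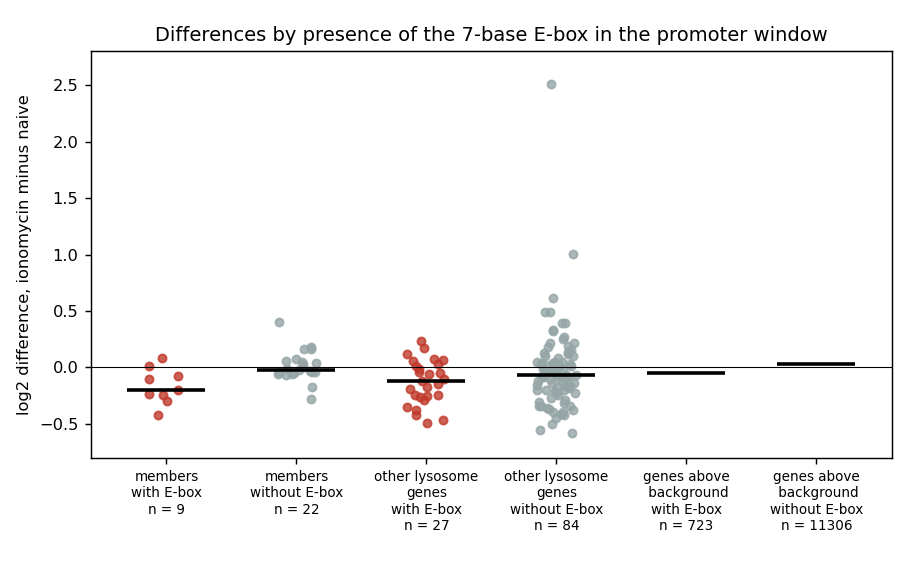
Log2 difference, ionomycin minus naive (vertical axis), of genes with and without TCACGTG in the promoter window, for the lysosomal members, the other lysosome genes and all genes above background. Each point is a gene, red with the site and grey without it, and the black line is the median; for genes above background only the medians (-0.05 with, 0.03 without) are drawn. The 9 members with the site have a median of -0.20 and the 22 without it -0.02, and the point at the top is Ctsl.

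Among 136 other measured genes of the lysosome pathway, 2 rose (1.47%) and 0 fell by limma without the block, against 0.289% and 0.0598% of all genes. With the replicate number as a block 4 rose (2.94%) and 0 fell, against 0.395% and 0.11% of all genes. The median of the 136 was -0.07, with 55 above 0 and 81 below. The groups did not overlap for 14 that were higher (10.3%) and 31 that were lower (22.8%), beside the 18.9% and 7.31% of all genes given above. Among genes above background with a promoter window, 12.8% of those without TCACGTG and 18.4% of those with it were lower without overlap. Ctsl and M6pr passed in both fits. Ctsl encodes cathepsin L, a cysteine protease of lysosomes, and had signals of 10.62, 11.03 and 11.003 in ionomycin arrays, against 8.39, 8.68 and 8.06 in naive arrays. The groups were far apart, and the log2 difference was 2.51 ± 0.18 (SE), a 5.70-fold rise (limma adjusted p = 0.0153, 0.0305 with the block); it was 2.65 without both replicate 1 arrays (0.00606). The call was lost without ionomycin replicate 2 (limma adjusted p = 0.124), ionomycin replicate 3 (0.0895) or naive replicate 3 (0.0636).

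M6pr encodes the cation-dependent mannose 6-phosphate receptor, which sorts newly made hydrolases from the Golgi to lysosomes. Its signals were 12.23, 12.17 and 12.16 in ionomycin arrays, against 11.44, 11.56 and 11.44 in naive arrays. Within each group the arrays lay close together, and the difference was 0.71 ± 0.06 (SE), a 1.63-fold rise (limma adjusted p = 0.0161, 0.0383 with the block). It did not pass without ionomycin replicate 1 (limma adjusted p = 0.0568), 2 (0.133) or 3 (0.116), nor without naive replicate 2 (0.0869) or 3 (0.0941). The second mannose 6-phosphate receptor, Igf2r, named here after its values were seen, differed by 0.17 (limma adjusted p = 0.456), and by 0.04 without both replicate 1 arrays. Of the 20 measured genes of sorting to lysosomes 1 passed and 15 were below 0, with a median of -0.21. The groups did not overlap for 7 that were lower (35%) and 1 that was higher (5%), against 7.31% and 18.9% of all genes. Above background the lower share was 12.8% for genes without TCACGTG in the promoter window and 18.4% for genes with it.

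Tcirg1 and Ctsh passed with the block only. Tcirg1 encodes a membrane subunit of the proton pump, and had signals of 10.77, 11.47 and 11.56 in ionomycin arrays, against 9.83, 10.54 and 10.42 in naive arrays. Replicate 1 was the lowest array in both groups, so the difference of 1.01 was even across numbers while the spread within groups was wide (SE 0.27; limma adjusted p = 0.211, 0.0322 with the block, 0.00606 without both replicate 1 arrays). Ctsh, the aminopeptidase cathepsin H, averaged 7.57 ± 0.09 in ionomycin arrays and 6.97 ± 0.10 in naive arrays, a difference of 0.59 (limma adjusted p = 0.0580, 0.0383 with the block). The other 10 of the 12 measured cathepsin and legumain genes passed in neither fit, and the list's median was 0.02 (-0.02 after quantile normalization and -0.04 after centring). Of 14 other pump subunits, 10 were above 0, with a median of 0.07, but 7 were above 0 after centring, with a median of 0.001.

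In the 4 remaining lists of the pathway 0 genes passed in either fit, and the gene with the largest difference is given for each. For 21 other hydrolases the median was -0.06 and the gene Hgsnat, the acetyltransferase of heparan sulfate breakdown (-0.40; limma adjusted p = 0.241). For 25 other membrane proteins the median was -0.09 and the gene Mcoln2, a channel of the same family as Mcoln1 (0.61; limma adjusted p = 0.123; 0.43 without both replicate 1 arrays, 0.0336). For 20 genes of nutrient sensing and TFEB control the median was -0.06 and the gene Rptor, a part of the mTORC1 kinase complex that holds TFEB in the cytosol (-0.58; limma adjusted p = 0.461). Its naive replicate 1 array, at 8.69, lay far below the other naive arrays (10.27 and 9.85), and without both replicate 1 arrays the difference was -0.96 (limma adjusted p = 0.0334). For 24 autophagy genes the median was -0.09 and the gene Uvrag, a partner of beclin (-0.50; limma adjusted p = 0.288; -0.46 without both replicate 1 arrays, 0.0307). At an unadjusted p under 0.05 the 136 genes had 11 higher (8.09%) and 25 lower (18.4%), against 10.2% and 5.44% of all genes. The shares of all genes include dim genes, which differ in sign from brighter ones. Below 0 were 35.4% of all genes, 54.5% of genes at or above the dimmest member's mean and 59.6% of the 136.

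**Figure D5:**
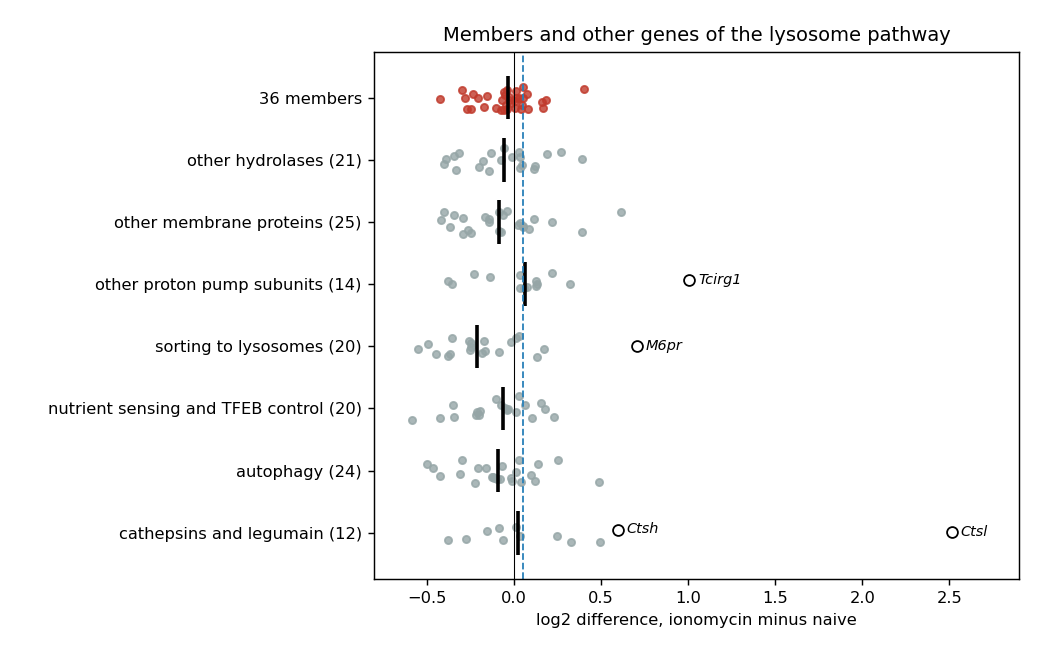
Log2 difference, ionomycin minus naive (horizontal axis), of the 36 lysosomal members (red) and of 136 other genes of the pathway by list (grey), with the number of measured genes in brackets. The thick bar is each list's median and the dashed line the median of all genes (0.05); genes past the threshold in the fit without or with the block are circled and named. The 36 members lie between -0.42 and 0.40, and the 4 named genes lie to the right of them.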

How the data were processed

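Biotin-labelled total RNA of 6 BMMC samples was measured on whole-transcript Affymetrix arrays, per the labels. The authors deposited processed values that run on a log2 scale, as read from the values, for 65770 rows; the submitters' processing notes name the R package oligo. Not given in the sources used here were its version, the background correction and the normalization, so the scaling of arrays is unknown; the array medians were 5.96, 6.03 and 6.03 (ionomycin replicates 1, 2 and 3) and 5.88, 5.96 and 5.99 (naive). Differences of about 0.1 can therefore move with the scaling.

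Rows were named through the platform annotation: 30439 had 1 symbol, 2146 several and 33185 none. Symbols of 827 rows were updated by Entrez ID with RefSeq GRCm38.p6. Where a gene had more than 1 row (252 genes), the row of highest 6-array mean was kept. Background was the 95th percentile of the means of 1750 chemosensory receptor genes. Groups and replicate numbers came from sample titles. Ionomycin was compared with naive by limma 3.58.1 (lmFit and eBayes, R 4.3.3), two-sided, without a filter, adjusted over 30102 genes. The fit without a block was tested on simulated data with independent noise. Those data had no shared replicate 1 shift, so that test does not cover it. Lists, sums, motifs and figures used Python 3.11.15, pandas 2.3.3 and matplotlib 3.10.9.

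All members are named. Values of every array are given for members whose groups did not overlap at an unadjusted p under 0.05, with or without the block, and for Tfeb, Tfe3, Mcoln1, Sqstm1, Lamp1 and Cd63; those of Npc1 and Cd68 were added after their values were seen. From each other list every gene past the threshold in either fit is named, or else the gene with the largest difference. Of 148 other lysosome genes listed, 136 were measured. Members, lists and tests were chosen with earlier results of these data known.

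Groups share replicate numbers in the titles. Deviations from the group means correlated across genes at 0.711, 0.476 and 0.469 for the same numbers, so the number was used as a block in a second fit. Numbers 2 and 3 correlated as well when crossed (0.524 and 0.481), which the block of 2 levels (replicate 1 against 2 and 3) allows for. Other alternatives were quantile normalization, centring, a filter on background, array weights, trend and robust variance, testing all rows, averaging the rows of a gene, and leaving arrays out.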

Additional observations from a re-analysis of the deposited data

How the results depend on the processing

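Precision is limited by 3 arrays a group, by the unknown normalization and by the replicate 1 arrays, which stood apart in both groups. Over 16 alternative settings the median difference of the 36 lysosomal genes stayed below 0, between -0.10 and -0.002. The sign held in all 16 for 18 members and turned in some for 18, whose differences were all within 0.1 of 0 as reported, and 9 members passed the threshold in at least 1 setting. For turned signs and changed counts the cause was not tested, except where arrays were left out.

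With the replicate block, 119 genes rose and 33 fell over all genes, and 4 of the other lysosome genes rose; it changed no other call of a gene named here than those of Tcirg1 and Ctsh. The 2-level replicate block gave 677 (2.25%) and 744 (2.47%) over all genes. It gave 0 and 1 (Sgsh, 2.78%) among members, and 7 (5.15%) and 10 (7.35%) among the other lysosome genes. Without both replicate 1 arrays the counts were 423 (1.41%) and 429 (1.43%), 0 and 2 (5.56%), and 6 (4.41%) and 4 (2.94%). Array weights were 0.416 (ionomycin) and 0.245 (naive) for replicate 1, 3.442 and 3.095 for replicate 2, and 1.174 and 0.7822 for replicate 3. Calls with these weights therefore lean most on the replicate 2 arrays. They numbered 2240 and 1654 of all 30102 genes, 1 and 7 of the 36 members, and 7 and 28 of the 136 other lysosome genes. Of the members, Tfeb was called higher, and Sgsh, Npc1, Naglu, Mcoln1, Atp6v0d1, Gaa and Fuca1 lower. Genes that fell numbered 32 with centring, 9 with trend and robust variance and 9 with all rows tested. Leaving out 1 array at a time gave 1 to 95 genes higher and 0 to 55 lower over all genes, 0 members in either direction, and 0 to 2 other lysosome genes higher and 0 lower.

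Signs turned as follows. With centring, Hexa was at -0.024, Gusb -0.015, Asah1 -0.018, Npc2 -0.059, Cd63 -0.039, Laptm5 -0.013, Atp6v1h -0.055, Atp6v1a -0.052 and Atp6v1b2 -0.062. With quantile normalization, Hexa was at -0.016, Atp6v1a -0.002 and Atp6v1b2 -0.030. With array weights, Hexa was at -0.060, Gusb -0.023, Npc2 -0.023, Laptm5 -0.047, Atp6v1h -0.098, Atp6v1a -0.116 and Atp6v1b2 -0.231. Without both replicate 1 arrays, Hexa was at -0.071, Manba 0.000, Npc2 -0.025, Laptm5 -0.042, Atp6v1h -0.149, Atp6v1a -0.141 and Atp6v1b2 -0.271. With the mean of its rows Arsb was at 0.092. Leaving out 1 array at a time, the ranges were -0.037 to 0.098 for Hexa, -0.343 to 0.066 for Gla, -0.091 to 0.156 for Gusb, -0.079 to 0.006 for Manba, -0.238 to 0.149 for Arsb, -0.016 to 0.154 for Asah1, -0.112 to 0.023 for Psap, -0.021 to 0.122 for Lipa, -0.016 to 0.019 for Npc2, -0.077 to 0.014 for Tpp1, -0.099 to 0.035 for Ppt1, -0.031 to 0.014 for Grn, -0.022 to 0.149 for Lamp1, -0.007 to 0.085 for Cd63, -0.063 to 0.112 for Laptm5, -0.108 to 0.079 for Atp6v1h, -0.066 to 0.058 for Atp6v1a and -0.175 to 0.122 for Atp6v1b2.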

Other observations

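Heparan sulfate is related to the heparin of mast cell granules, and several genes of its breakdown were lower together. This group was put together after its values were seen, so it has no test of its own. Among 8 measured genes, the differences were -0.42 for Sgsh, -0.40 for Hgsnat, -0.39 for Idua, the iduronidase, -0.32 for Ids, the iduronate sulfatase, and -0.30 for Naglu. Gusb (0.05), Arsg (0.03) and the endoglycosidase gene Hpse (-0.01) were close to 0. Arsg (means 6.515 with ionomycin and 6.481 naive) and Hpse (6.558 and 6.571) were dim, not far above the background of 5.99. A change could be harder to see in them. The first 5 were lower with ionomycin at each replicate number. So were 16.8% of all genes and 32.2% of the genes at or above the dimmest member's mean. None of the 8 passed by limma without the block, where the adjusted p was 0.332 for Idua and 0.356 for Ids. None passed with the replicate number as a block either (limma adjusted p = 0.0914 for Sgsh, 0.107 for Hgsnat and 0.0833 for Idua). With the block of 2 levels Sgsh (limma adjusted p = 0.0346), Hgsnat (0.0467) and Idua (0.0254) passed, where 2.47% of all genes fell. Idua also passed without both replicate 1 arrays (-0.44, 0.0332), while Sgsh (0.0850) and Hgsnat (0.105) did not, and 1.43% of all genes fell.

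HOPS, the tether that joins late endosomes and autophagosomes to lysosomes, is made of 6 subunits, and all 6 genes had negative differences; they too were chosen after their values were seen. They were Vps33a (-0.49), Vps39 (-0.38), Vps41 (-0.36), Vps11 (-0.35), Vps16 (-0.26) and Vps18 (-0.17). The groups did not overlap for 5 of them, Vps16 being the exception, against 7.31% of all genes apart and lower. Above background that share was 12.8% for genes without TCACGTG in the promoter window and 18.4% for genes with it. None of the 6 passed without the block (smallest limma adjusted p = 0.0759, for Vps11) or with the replicate number as a block (smallest 0.0704, for Vps39). With the block of 2 levels Vps11 (0.0261), Vps39 (0.0216) and Vps41 (0.0255) passed, where 2.47% of all genes fell. Only Vps39 passed without both replicate 1 arrays (limma adjusted p = 0.0485), where Vps16 was at -0.13, Vps18 at -0.10 and Vps33a at -0.39.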
